A study of Mus musculus with 12 samples.

Results

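The values of 9 leukocyte adhesion genes, of 53801 genes in the table, were followed in eosinophils of bone marrow and blood. They were given as a list of symbols: Itga4, Itgal, Itgam, Itgax, Itgb1, Itgb2, Itgb7, Selplg and Icam1, and each matched 1 identifier of the count table. All 9 genes passed the filter on low counts in every comparison. On GRCm38 they lie on chromosome 2 (Itga4, ENSMUSG00000027009, 79255426 to 79333123), chromosome 5 (Selplg, ENSMUSG00000048163, 113818536 to 113832644), chromosome 8 (Itgb1, ENSMUSG00000025809, 128685654 to 128733200), chromosome 9 (Icam1, ENSMUSG00000037405, 21015985 to 21028817), chromosome 10 (Itgb2, ENSMUSG00000000290, 77530252 to 77565708) and chromosome 15 (Itgb7, ENSMUSG00000001281, 102215995 to 102231944). Itgal (ENSMUSG00000030830), Itgam (ENSMUSG00000030786) and Itgax (ENSMUSG00000030789) share chromosome 7. Counts are totals over the exons of each gene.

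The samples were 12 RNA-seq libraries, 3 for each of 4 groups. Control mice carried eoCre, a heterozygous Cre recombinase knocked into Epx that is active in eosinophils, together with Il5tg, a transgene that makes IL-5 from Cd3d regulatory sequence in T cells and raises eosinophil numbers. Atg5-knockout mice carried both of these and in addition homozygous floxed Atg5, a gene needed to form autophagosomes, so the recombinase and the excess of IL-5 were common to all 4 groups. The ages of these mice are not given in the sources used here. Eosinophils were enriched from flushed femur and tibia or from blood by removing cells that bore CD8α, CD90.2, Ly6G or a further surface marker. The paper names macrophages among the cells removed and does not name natural killer cells or monocytes. Before this step blood was spun over a density medium and its red cells were lysed in water, steps not described for bone marrow. Tissue and handling therefore cannot be told apart. The labels do not say that the replicates were separate animals, so the p-values below measure the spread between these libraries, which may be technical.

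Integrins are pairs of 1 alpha and 1 beta chain that hold a leukocyte to other cells and to matrix once signals from inside the cell have switched them to their binding form. Itgal, Itgam and Itgax encode the alpha chains CD11a, CD11b and CD11c, which share the beta chain CD18 of Itgb2, and the CD11a pair (LFA-1) binds ICAM-1, the product of Icam1. Itga4 encodes the alpha chain that joins the product of Itgb1 to bind VCAM-1, or the product of Itgb7 to bind MAdCAM-1 of gut venules. Selplg encodes PSGL-1, the ligand through which leukocytes roll on P-selectin. Eosinophils are known for using the alpha-4 integrins, which mature neutrophils largely lack, to leave the blood.

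Library totals over genes ran from 18885052 to 30270166 counts. Levels are given as CPM, counts relative to library size after TMM scaling of the 12 libraries. The eosinophil markers Prg2 (7040 to 55600 CPM) and Siglecf (345 to 931 CPM) were present in every library. Atg5 itself stood at 30.6 to 33.9 CPM in knockout and 40.5 to 45.4 CPM in control bone marrow, but at 36.6 to 52.4 and 40.1 to 58.7 CPM in blood, where the genotypes overlapped. These are totals over the whole gene and do not isolate the floxed part. The paper also measured Atg5 RNA by quantitative PCR and ATG5 protein by immunoblot in eosinophils of both tissues. Control blood 1 stood apart, with 14.6% of its counts on 9 red cell genes against 0.423% to 1.43% in the other blood libraries.

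The letters upstream of 3 of the genes are shown because Itgam and Itgax are neighbours 11.1 kb apart on 1 strand of chromosome 7 and had the most negative knockout differences, neither of them called by edgeR, and because Itga4 encodes the alpha chain of both VCAM-1 and MAdCAM-1 receptors. Each run is the 250 bases before the RefSeq start on GRCm38.p6, 5′ to 3′ on the gene's strand, with capitals marking the letters GAGGAA (core bound by PU.1) or TGTGGT (core bound by RUNX factors) on either strand. Positions count back from -1, the base before the start.
Itgam, chr7:128062390-128062639: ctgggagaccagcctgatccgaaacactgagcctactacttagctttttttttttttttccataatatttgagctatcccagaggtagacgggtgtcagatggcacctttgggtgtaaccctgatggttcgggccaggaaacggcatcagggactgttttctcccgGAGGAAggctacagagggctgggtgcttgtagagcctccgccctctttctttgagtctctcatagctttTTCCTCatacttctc
Itgax, chr7:128129300-128129549: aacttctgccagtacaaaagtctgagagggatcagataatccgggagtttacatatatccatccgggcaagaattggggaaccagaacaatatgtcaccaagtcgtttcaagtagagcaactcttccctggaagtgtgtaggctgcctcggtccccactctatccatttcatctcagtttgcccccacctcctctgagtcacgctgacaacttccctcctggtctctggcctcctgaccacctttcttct
Itga4, chr2:79255176-79255425: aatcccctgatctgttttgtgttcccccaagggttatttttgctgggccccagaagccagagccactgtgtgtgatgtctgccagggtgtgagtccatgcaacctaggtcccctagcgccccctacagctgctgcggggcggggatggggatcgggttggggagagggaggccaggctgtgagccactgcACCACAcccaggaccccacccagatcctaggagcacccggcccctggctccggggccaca
The Itgam window held GAGGAA at -84 and its reverse complement at -15, the Itga4 window held the reverse complement of TGTGGT at -60, and the Itgax window held none of these letters. Over the 6 members with an entry (Itga4, Itgam, Itgax, Itgb1, Itgb7 and Icam1), 2 windows held the PU.1 core and 1 held the RUNX core, against 23.3% and 14% of 32851 windows of the same length. The KLF and SP factor letters GGGCGG stood in 4 of 6 (32.7% of all windows) and TATAAA in 0 of 6 (12.4%). Itgal, Itgb2 and Selplg had no entry. A match is a stretch of letters and not a shown binding site.

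Every member was higher in blood than in bone marrow eosinophils, in both genotypes, and in each case all 3 blood libraries lay above all 3 bone marrow libraries of the same genotype. The comparison asks how the adhesion genes differ between the marrow, where eosinophils form, and the blood they enter. Handling before the depletion differed between the tissues as well, and its part was not tested. With edgeR's quasi-likelihood test over 6 libraries and Benjamini-Hochberg adjustment over all genes, 9 of 9 members were called (adjusted p under 0.05) in control and 9 of 9 in Atg5-knockout mice, where 16.2% and 23.5% of all genes tested were called higher in blood. Groups that did not overlap, with blood higher, made up 23.5% of all genes in control and 27.7% in knockout mice. The median log2 fold change of the members was 1.09 in control and 1.29 in knockout mice, beside -0.00289 and -0.0103 over all genes.

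The alpha chains Itgax, Itgal and Itga4 rose most. Itgax, whose chain CD11c is best known from dendritic cells, read 17.7, 15.6 and 13.2 CPM in control bone marrow and 142, 127 and 143 CPM in control blood. In knockout mice the Itgax values were 12.6, 10.7 and 13.99 CPM in bone marrow and 93.6, 92.7 and 69.3 CPM in blood. Blood thus held the higher libraries without overlap, by a log2 fold change of 3.13 (SE 0.18, adjusted p 1.16e-05) in control and 2.79 (SE 0.17, adjusted p 6.34e-06) in knockout mice. Itgal read 204, 151 and 168 CPM in control bone marrow against 1121, 824 and 809 CPM in control blood, and 200, 195 and 209 CPM against 894, 924 and 886 CPM in knockout mice. The control blood values of Itgal were spread by control blood 1, the library rich in red cell counts, while the other 2 lay close together and below the 3 knockout libraries. Its log2 fold change was 2.38 (SE 0.21, adjusted p 7.18e-05) in control and 2.18 (SE 0.12, adjusted p 2.69e-06) in knockout mice.

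Itga4 stood at 113, 135 and 145 CPM in control bone marrow and at 704, 453 and 508 CPM in control blood. Knockout mice gave 103, 113 and 133 CPM in bone marrow and 484, 469 and 557 CPM in blood. Control blood 1 was the highest of the 12 for Itga4 and for Itgal. The log2 fold change of Itga4 was 2.07 (SE 0.21, adjusted p 0.000192) in control and 2.13 (SE 0.14, adjusted p 1.03e-05) in knockout mice. Without control blood 1 it was 1.87 in control mice, and that of Itgal was 2.22. These 3 alpha chains passed a log2 fold change of 2 between the tissues in both genotypes, a threshold the study used for knockout against control.

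Itgam, the alpha chain of the complement receptor Mac-1, rose less. Its values were 443, 616 and 523 CPM in control bone marrow and 793, 1207 and 1265 CPM in control blood, a log2 fold change of 1.03 (SE 0.22, adjusted p 0.00819). In knockout mice it read 344, 302 and 375 CPM in bone marrow and 643, 870 and 1111 CPM in blood, a log2 fold change of 1.38 (SE 0.20, adjusted p 0.000611). The lowest blood library of each genotype was replicate 1.

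The beta chains rose by log2 fold changes of 0.71 to 1.29. Itgb2, the partner of the CD11 chains, read 1272, 938 and 964 CPM in control bone marrow and 2272, 1861 and 2102 CPM in control blood, and 1121, 1039 and 1308 CPM against 1828, 1928 and 1864 CPM in knockout mice. Its log2 fold change was 0.96 (SE 0.19, adjusted p 0.00501) in control and 0.71 (SE 0.14, adjusted p 0.00261) in knockout mice, the smallest of the members in each genotype. Itgb1 went from 287 ± 14.4 to 617 ± 29.1 CPM (SD, n = 3) in control and from 268 ± 10.7 to 647 ± 96.6 CPM in knockout mice, with log2 fold changes of 1.09 (SE 0.15) and 1.29 (SE 0.14). Itgb7 went from 538 ± 32.2 to 1120 ± 113 CPM in control mice, a log2 fold change of 1.05 (SE 0.16), and by 1.2 (SE 0.13) in knockout mice. The adjusted p of Itgb1 and Itgb7 lay between 0.000137 and 0.00162.

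The selectin ligand and the integrin ligand followed. Selplg read 779, 670 and 643 CPM in control bone marrow and 1052, 1484 and 1680 CPM in control blood, with log2 fold changes of 1.0 (SE 0.21, adjusted p 0.0067) in control and 1.02 (SE 0.14, adjusted p 0.000391) in knockout mice. Icam1 had 12.1, 6.4 and 9.7 CPM in control bone marrow and 29.1, 28 and 20.4 CPM in control blood. In knockout mice Icam1 gave 11.7, 11.4 and 12.2 CPM against 29.4, 23.3 and 15.9 CPM. Its log2 fold change was 1.45 (SE 0.27, adjusted p 0.004) in control and 0.98 (SE 0.23, adjusted p 0.00672) in knockout mice.

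**Figure D1:**
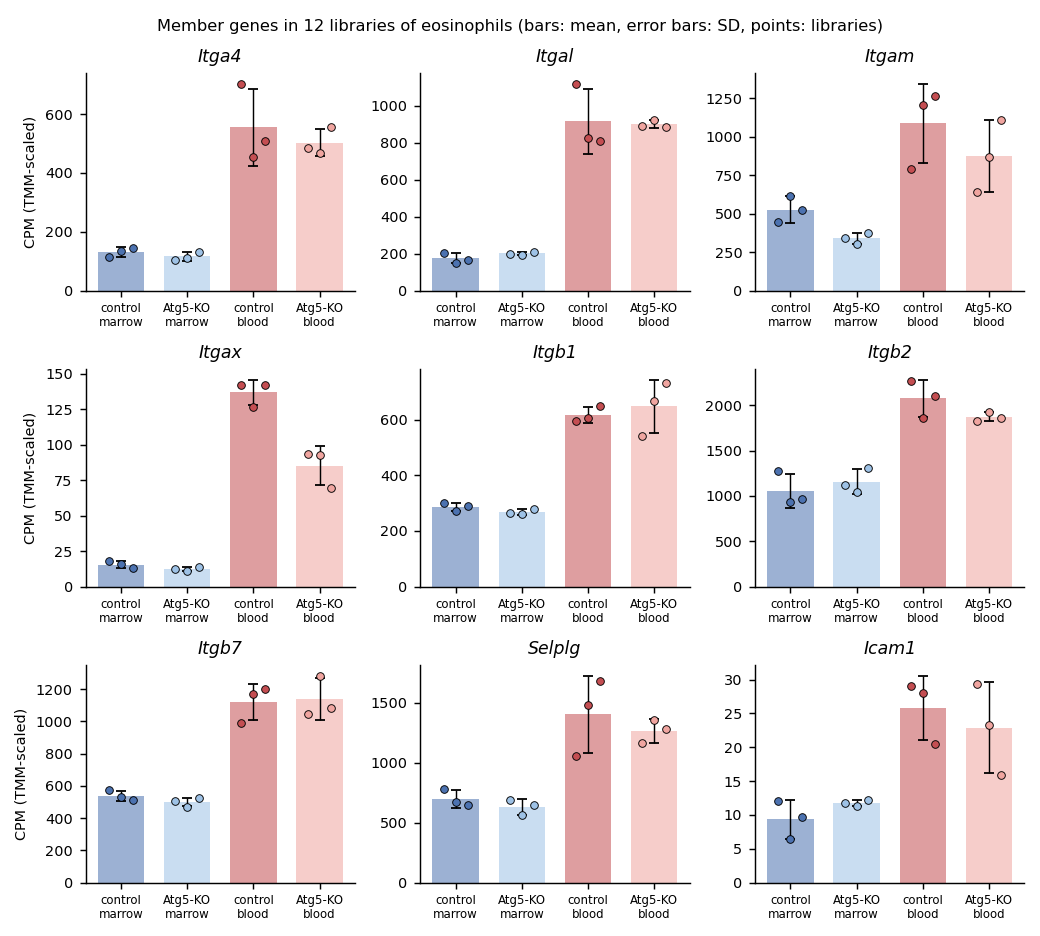
CPM of the 9 members (vertical axis, each panel its own scale from 0) in control and Atg5-knockout bone marrow and blood (horizontal axis). Bars show means, error bars the SD and points the 3 libraries of a group, and in every panel the blood libraries lie above the bone marrow libraries of the same genotype.

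All 9 members were still called in both genotypes without any 1 library and under every other setting tried. Some calls passed narrowly. In control mice the adjusted p reached 0.0492 for Selplg, 0.0478 for Itgam and 0.0436 for Itgb2. Their log2 fold changes went down to 0.69, 0.72 and 0.65. In knockout mice the highest adjusted p was 0.0385 (Icam1) and the lowest log2 fold change 0.48 (Itgb2). Scaled by library size alone, the median over all genes was -0.313 in control and -0.241 in knockout mice, and calls in control mice went from 2213 higher and 2466 lower to 1306 higher and 3910 lower (in knockout mice from 3256 and 3336 to 2254 and 4342), but the members stayed higher in blood.

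Marker genes of other cells also differed between the tissues. Natural killer cell genes, whose cells carry CD11a, CD11b and CD11c and are not named as a target of the depletion, made up 0.0271% to 0.0571% of the counts in blood and 0.000413% to 0.000863% in bone marrow. In each genotype 8 of 8 listed genes were called higher in blood. Among them Gzma, a granzyme gene, read 208 to 419 CPM in blood and 1.25 to 2.73 CPM in bone marrow, while the defining marker Ncr1 read 4.02 to 48.7 CPM in blood and 0.0331 to 0.599 CPM in bone marrow. T cell genes ranged from 0.00216% to 0.0287% in blood and from 0.000869% to 0.00111% in bone marrow, where Cd3e was at 0 in every library, and 2 of 4 tested in control and 8 of 9 tested in knockout mice were called higher in blood. B cell genes, 9 of them here, took 0.0155% to 0.223% in blood and 0.0379% to 0.0408% in bone marrow, and 2 of 8 tested in control and 6 of 9 tested in knockout mice were called higher and 0 lower in blood. In blood, replicate 1 of each genotype had the highest T and B cell shares, with 0.223% on B cell genes in knockout against 0.0269% and 0.0395% in the other knockout libraries, and 0.111% in control against 0.0155% and 0.0319%. Of the B cell genes, Ighm alone read 313 to 352 CPM in bone marrow and 162 to 1260 CPM in blood. B cells are known to carry the products of Itga4, Itgal, Itgb7 and Selplg. Monocyte and macrophage genes took 0.299% to 0.322% in blood and 0.262% to 0.304% in bone marrow, with 6 of 10 called higher and 1 lower in control mice and 5 higher and 3 lower in knockout mice. Among them Adgre1 read 1190 to 1640 CPM in blood and 566 to 959 CPM in bone marrow. C1qa read 0.0451 to 0.307 CPM in blood and 0.497 to 1.55 CPM in bone marrow. Which cells these reads came from was not tested. Progenitor and cell cycle genes took 0.0111% to 0.0165% in blood and 0.194% to 0.282% in bone marrow, with 7 of 8 called lower in blood in control and 8 of 8 in knockout mice. Eosinophil genes took 1.8% to 4.05% in blood and 8.04% to 10.2% in bone marrow, with 2 of 10 called higher and 6 lower in each genotype. Of 8 tested red cell genes 6 were higher in blood in control and 2 lower in knockout mice, and of platelet genes 9 of 10 and 3 of 9 were higher. Neutrophil genes took 0.938% to 1.19% in blood and 1.4% to 1.8% in bone marrow, with 4 of 10 lower in control mice and 1 higher and 5 lower of 9 in knockout mice. Dendritic cell genes took 0.0103% to 0.0176% and 0.0135% to 0.0189%, with 2 of 7 lower in control mice and 2 higher and 2 lower of 8 in knockout mice. The part of these shares in the members' differences was not tested, and in bulk samples fewer cells of a type and less RNA per cell cannot be told apart. Without replicate 1 of the blood, the members' log2 fold changes ran from 0.90 (Itgb2) to 3.11 (Itgax) in control and from 0.73 (Itgb2) to 2.72 (Itgax) in knockout mice.

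By edgeR's test no member was called between the genotypes in either tissue, while DESeq2 called Itgam in bone marrow. In bone marrow 0 of 9 members were called by edgeR, where 0.348% of all genes were called in either direction, and the log2 fold changes ran from -0.66 (Itgam) to 0.29 (Icam1), with 3 above and 6 below 0 and a median of -0.135 beside 0.00292 over all genes. At an unadjusted p under 0.05 there were 2 members, Itgam and Itgax, beside 1333 of 13781 genes tested. DESeq2 called 1 member, beside 192 of 24513 genes in its test. In blood 0 of 9 were called by edgeR, where 0.0371% of all genes were. There 2 lay above and 7 below 0, with a median of -0.131 beside 0.00607 over all genes. In blood 1 member, Itgax, had an unadjusted p under 0.05, beside 348 of 13460 genes tested. DESeq2 called 0 members there, beside 23 of 23454 genes in its test.

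In bone marrow the 3 knockout libraries of Itgam, at 302 to 375 CPM, all lay below the 3 control libraries, at 443 to 616 CPM, and Itgam was the member whose groups did not overlap there (14.4% of all genes did not). The log2 fold change was -0.66 (SE 0.14, unadjusted p 0.000422) and the adjusted p was 0.0814. Itgam was called by DESeq2 (adjusted p 0.000343), without a filter on low counts (adjusted p 1.3e-05) and without control bone marrow 1 (log2 fold change -0.78, adjusted p 0.0128), and over all 14 alternatives its adjusted p ranged from 1.3e-05 to 1.0. In blood Itgam overlapped between the genotypes, with a log2 fold change of -0.29 (SE 0.27, adjusted p 1.0).

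In blood Itgax was the member whose groups did not overlap (7.59% of all genes did not), with 69.3 to 93.6 CPM in knockout and 127 to 143 CPM in control libraries. Its log2 fold change was -0.67 (SE 0.18, unadjusted p 0.00511) and its adjusted p was 1.0, and in bone marrow the value was -0.35 (SE 0.16, adjusted p 0.508) with overlapping groups. Same-numbered blood libraries deviated together, and with the replicate number as a block Itgax stood at -0.68 (SE 0.16, adjusted p 0.373), no member was called, and the genes called over the whole table went from 5 to 10, of which 7 were higher and 3 lower. Across the alternatives the adjusted p of Itgax in blood ranged from 0.294 to 1.0.

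The remaining 7 members, Itga4, Itgal, Itgb1, Itgb2, Itgb7, Selplg and Icam1, had log2 fold changes from -0.20 to 0.29 in bone marrow and from -0.16 to 0.09 in blood, with adjusted p from 0.65 to 0.852 and of 1.0. The SE of these values was 0.098 to 0.20 in bone marrow and 0.18 to 0.27 in blood, and the signs of Itga4, Itgal, Itgb1, Itgb7, Selplg and Icam1 in blood and of Itgb2 in bone marrow turned under at least 1 alternative. Natural killer cell genes took 0.0437% to 0.0516% of the counts in knockout and 0.0271% to 0.0571% in control blood, and 0 of 8 were called between the genotypes by edgeR. Ncr1 did not overlap (7.59% of all genes did not), at 29.7 to 48.7 CPM in knockout and 4.02 to 27.4 CPM in control blood. Klrb1c, Gzma and Prf1 of the same list overlapped, with means of 34.5, 301 and 44.9 CPM in knockout and 25.8, 291 and 50.6 CPM in control blood. The part of these genes' cells in the members' values was not tested. Red cell genes took 0.204% to 0.727% in knockout and 0.138% to 0.25% in control bone marrow, with 1 of 8 tested called higher in knockout mice.

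**Figure D2:**
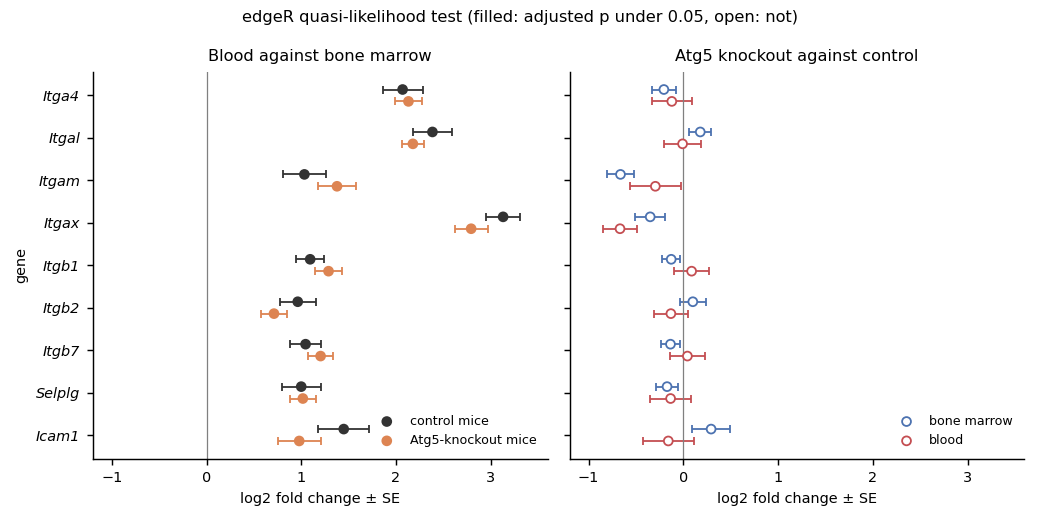
Log2 fold change with its SE (horizontal axis) for each member (vertical axis), on the left for blood over bone marrow in control and Atg5-knockout mice, on the right for knockout over control in bone marrow and blood. Filled points passed an adjusted p of 0.05 and open points did not, and the filled points are the 18 tissue differences on the left.

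Whether the tissue difference itself depended on genotype was tested as an interaction over all 12 libraries, which are those of the comparisons above. By edgeR 0 of 9 members and 0 of 14712 genes (0.0%) were called, with 740 genes at an unadjusted p under 0.05, and DESeq2 called 11 genes and 0 members. The difference of the tissue log2 fold change, knockout minus control, ran from -0.50 (Icam1, SE 0.36) to 0.32 (Itgam, SE 0.31), with adjusted p from 0.942 to 1.0. That of Itga4 was 0.03 (SE 0.25).

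Levels can be set between genes only per length, here all annotated exon bases of a gene. Itga4 has the most of the members, 13978, and its place below rests on that length. Per kilobase of annotated exon the order in control bone marrow was Itgb2 (347 ± 60.9 CPM per kilobase, SD, n = 3), Itgb7 (194 ± 11.6), Selplg (163 ± 16.9), Itgam (105 ± 17.2), Itgb1 (70.3 ± 3.54), Itgal (26.6 ± 4.11), Itga4 (9.38 ± 1.16), Itgax (3.23 ± 0.475) and Icam1 (2.15 ± 0.662). Neighbours in this order did not overlap between libraries, apart from Itgax and Icam1. Knockout bone marrow had the same order except that Icam1 (2.70) stood above Itgax (2.59), with overlapping libraries, and that the libraries of Itgam (67.7) and Itgb1 (65.6) overlapped as well. In control blood the order was that of control bone marrow, from Itgb2 at 681 to Icam1 at 5.93 CPM per kilobase, and Itgb7, Selplg, Itgam, Itgb1 and Itgal overlapped each with its neighbours among these 5. In knockout blood the order was again the same, and the overlaps were those among Itgam, Itgb1 and Itgal.

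Itgam could not be placed surely. Of its 5024 exon bases, 3450 (68.67%) are shared with Gm49368, a gene annotated on the same strand from within Itgam towards Itgax, and reads on bases of several genes were not counted. Gm49368 held 120 counts over the 12 libraries, and Itgam 198709. Divided by its 1574 unshared bases, a choice made after the data were seen, Itgam stood at 335 ± 54.9 CPM per kilobase in control bone marrow, overlapping with Itgb2, and at 691 ± 164 in control blood, beside 681 ± 67.7 for Itgb2. A smaller part of Itga4 (8.04%) is shared with Cerkl and of Icam1 (11.72%) with Gm47079, both on the opposite strand, and the counting used no strand. The fold changes above compare the same bases in every library.

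**Figure D3:**
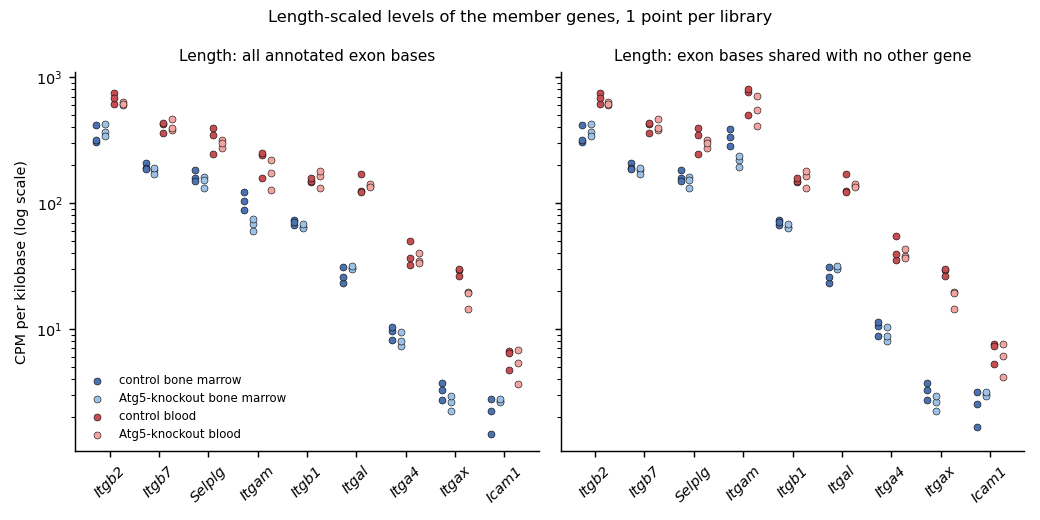
CPM per kilobase (vertical axis, log scale) of the 9 members (horizontal axis), 1 point per library and 1 colour per group, with length as all annotated exon bases on the left and as unshared exon bases on the right. Itgam lies below Itgb2, Itgb7 and Selplg in control bone marrow on the left and overlaps with Itgb2 on the right, where the order of the other members by group mean is that on the left.

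The ratios between integrin chains did not all stay level between tissues. Itgb7 and Itgb1, and likewise Itgam and Itgal, encode chains that share a partner, whereas the chains of Itga4 and Itgb1 are partners of each other. Each ratio was taken per library from CPM per kilobase and tested exactly by permuting labels, two-sided, with 9 tests adjusted together. Itgb7 to Itgb1, the 2 beta partners of the alpha-4 chain, stayed between 2.18 and 2.87 in all 12 libraries. The log2 ratio in blood minus that in bone marrow was -0.07 (exact permutation p 0.46, adjusted p 0.771, 400 labelings within genotype). Itga4 to Itgb1 was 0.111 to 0.146 in bone marrow and 0.206 to 0.345 in blood. Without scaling to length this ratio was 0.38 to 0.50 in bone marrow and 0.70 to 1.18 in blood. The log2 difference was 0.91 on either scale (exact permutation p 0.005, the smallest that the 400 labelings can give, adjusted p 0.0225). Itgam to Itgal went the other way, from 2.02 to 5.33 in bone marrow to 0.924 to 2.05 in blood, a log2 difference of -1.10 (exact permutation p 0.005, adjusted p 0.0225).

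Between genotypes, the log2 ratio of Itgam to Itgal in bone marrow was 1.14 ± 0.11 (SD, n = 3) in knockout and 1.98 ± 0.46 in control libraries, a difference of -0.84 without overlap. With 3 against 3 libraries the exact permutation test cannot go below 0.1, which is the p it gave (adjusted p 0.3). In blood the difference was -0.31 (exact permutation p 0.6). The other ratios differed between the genotypes by -0.18 to -0.01 on the log2 scale, with exact permutation p from 0.6 to 1.0.

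**Figure D4:**
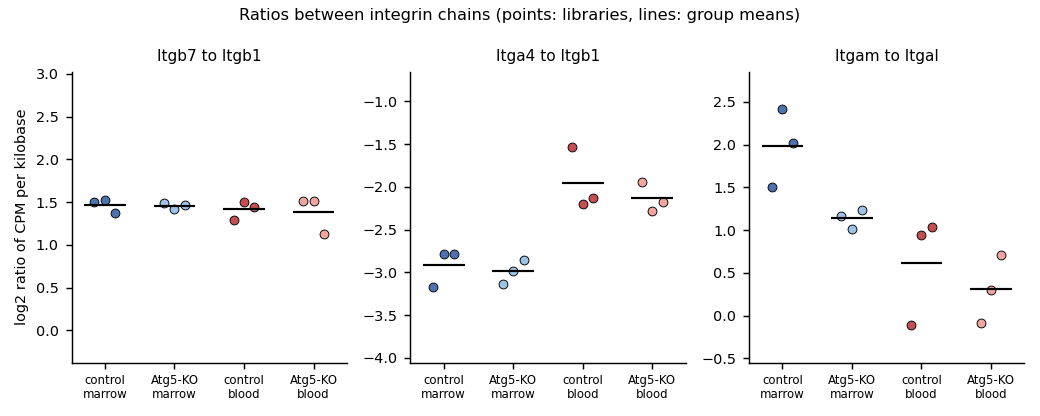
Log2 ratio of CPM per kilobase (vertical axis, the same span in each panel) for Itgb7 to Itgb1, Itga4 to Itgb1 and Itgam to Itgal in the 4 groups (horizontal axis), with 1 point per library and a line at each group mean. The first ratio is level across groups, the second is higher in blood, and the third is lower in blood and lower in knockout than in control bone marrow.

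Other genes of the adhesion pathway, 81 in 6 lists, were compared in the same way. Over all 13669 genes tested in control mice, 2213 were called higher and 2466 lower in blood. In knockout mice these were 3256 and 3336 of 13853. The counts of each list, here and in the paragraphs that follow, stand beside these shares and were not tested against them. For the list on integrin activation, which is not limited to activators, of 18 tested genes 11 were called higher and 0 lower in blood in control mice (12 and 1 in knockout mice). The median log2 fold changes were 0.80 and 0.52. Cytip, which binds cytohesin, went from 206 ± 29.9 to 788 ± 182 CPM in control mice (log2 fold change 1.92, SE 0.21, adjusted p 0.000279), and Fyb1, the adaptor ADAP, from 97.9 ± 12.1 to 263 ± 28.3 CPM (1.41, SE 0.17, adjusted p 0.000407). Skap1, a partner of ADAP known from T cells, was at 0.209 ± 0.173 CPM in bone marrow and 8.17 ± 7.65 CPM in blood of control mice, with log2 fold changes of 5.27 (SE 0.94) in control and 5.29 (SE 0.58) in knockout mice. Parvg, a binding partner of integrin-linked kinase, was lower in blood in knockout mice (-0.44, SE 0.11, adjusted p 0.00869) and at -0.16 (SE 0.14, adjusted p 0.429) in control mice.

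Other integrin chains moved in both directions. Of 13 tested in control mice 5 were higher and 1 lower in blood, and of 12 in knockout mice 4 were higher and 3 lower. Itga2, the alpha chain of the collagen receptor that also marks natural killer cells as CD49b, went from 32.2 ± 4.46 to 90.2 ± 11.5 CPM in control mice (log2 fold change 1.48, SE 0.18, adjusted p 0.000456) and rose by 1.68 (SE 0.13) in knockout mice. Itga5, the alpha chain of the fibronectin receptor, rose by 0.86 (SE 0.23, adjusted p 0.0187) and 0.53 (SE 0.17, adjusted p 0.0268), and Itgb5, a partner of the alpha-V chain, by 1.34 (SE 0.42, adjusted p 0.0359) and 1.19 (SE 0.24, adjusted p 0.00379). Itga1, another alpha chain for collagen, fell by 1.25 (SE 0.34, adjusted p 0.021) and by 1.72 (SE 0.27, adjusted p 0.00102) on the log2 scale. Itga2b, the platelet chain CD41, fell by 1.66 (SE 0.13, adjusted p 2.18e-05) in knockout mice and stood at -0.36 (SE 0.23, adjusted p 0.251) in control mice. Platelet genes took 0.00288% to 0.0254% of the counts in control and 0.00184% to 0.00368% in knockout blood.

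On the selectin side, of 7 tested selectins and further selectin ligands 4 were higher and 0 lower in blood in each genotype. Cd44 rose by 0.91 (SE 0.18, adjusted p 0.00465) and 1.47 (SE 0.18, adjusted p 0.00027), Cd24a by 0.90 (SE 0.26, adjusted p 0.0271) and 1.42 (SE 0.25, adjusted p 0.00159). Sele, the endothelial E-selectin, went from 0.137 ± 0.0472 to 1.8 ± 0.227 CPM in control mice (3.67, SE 0.52, adjusted p 0.00103). Among the enzymes that decorate these ligands, 3 of 11 tested were higher and 2 lower in control mice, and 6 of 12 were higher and 1 lower in knockout mice. Fut4, a fucosyltransferase, went from 34.5 ± 3.59 to 77.2 ± 5.63 CPM in control mice (1.15, SE 0.16, adjusted p 0.000908). Fut7, the fucosyltransferase that completes sialyl Lewis X on PSGL-1, went from 19 ± 3.15 to 4.56 ± 1.25 CPM in control mice (-2.06, SE 0.27, adjusted p 0.000701) and from 20.8 ± 0.585 to 2.17 ± 0.317 CPM in knockout mice (-3.25, SE 0.20, adjusted p 6.88e-06). The sialyltransferase gene St3gal6 rose by 2.10 (SE 0.41) and 2.57 (SE 0.33), and St3gal4, which also serves selectin ligands, by 0.72 (SE 0.18) and 1.34 (SE 0.16). C1galt1c1, the chaperone of core O-glycan synthesis, fell by 0.64 (SE 0.19, adjusted p 0.0282) in control mice and stood at -0.59 (SE 0.22, adjusted p 0.055) in knockout mice.

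Ligands of the immunoglobulin family gave 1 higher and 1 lower of 6 tested in control and 2 higher and 1 lower in knockout mice. Vcam1, the ligand of the alpha-4 and beta-1 pair, was at 169 ± 7.92 CPM in control bone marrow and 14.7 ± 3.30 CPM in control blood (-3.54, SE 0.20, adjusted p 1.21e-05), and at 176 ± 16.3 and 6.88 ± 4.59 CPM in knockout mice (-4.67, SE 0.52, adjusted p 0.000148). F11r, the junctional molecule JAM-A that binds CD11a, went from 1.02 ± 0.0435 to 6.04 ± 0.333 CPM in control mice (2.55, SE 0.31, adjusted p 0.000444) and rose by 2.64 (SE 0.34) in knockout mice. Icam2, a second ligand of CD11a, was called higher in knockout mice (0.48, SE 0.13, adjusted p 0.0122) and stood at 0.37 (SE 0.17, adjusted p 0.122) in control mice. Of 3 tested genes for shedding of adhesion receptors 1 was higher in each genotype: Adam8, a metalloprotease, went from 454 ± 78.7 to 1290 ± 175 CPM in control mice (1.5, SE 0.19, adjusted p 0.000668) and rose by 1.33 (SE 0.15) in knockout mice. Between the genotypes 0 genes of these 6 lists were called in either tissue by edgeR.

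**Figure D5:**
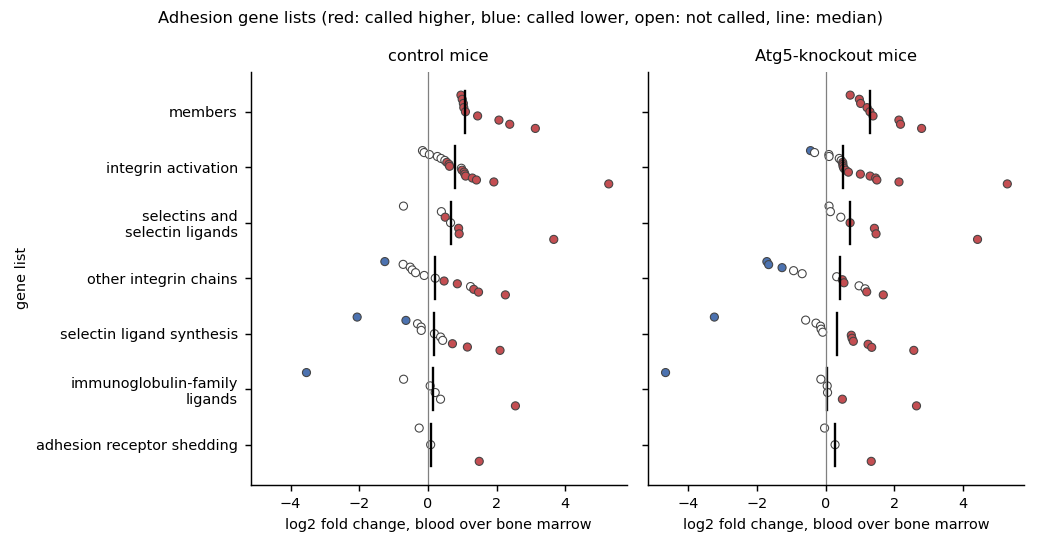
Log2 fold change of blood over bone marrow (horizontal axis) for each tested gene of the members and of 6 other adhesion lists (vertical axis), in control mice on the left and Atg5-knockout mice on the right. Red points were called higher, blue points lower and open points not called, lines mark list medians, and the 9 members are all red in both panels.

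Itgal, Itgam and Itgax lie on chromosome 7, at 127296260 to 127335138, 128062640 to 128118491 and 128129547 to 128150657 on GRCm38. Within 1 Mb of Itgal, 2 of 91 other tested genes were called between the genotypes in bone marrow and 1 of 88 in blood, whereas within 1 Mb of Itgam 0 of 58 and 0 of 55 and of Itgax 0 of 56 and 0 of 53 were called by edgeR. Gdpd3, a lysophospholipase D gene 520.6 kb before Itgal, was higher in knockout mice by a log2 fold change of 4.27 (SE 0.18, adjusted p 7.98e-08) in bone marrow and 5.35 (SE 0.25, adjusted p 0.000101) in blood, and Gm10155, 996.3 kb before Itgal, by 3.21 (SE 0.41, adjusted p 0.00376) in bone marrow. Itgal itself stood at 0.18 (SE 0.12, adjusted p 0.661) and -0.01 (SE 0.19, adjusted p 1.0).

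Some members were close to each other in their pattern over the 12 libraries, measured as the root mean square difference of log2 CPM after centring each gene. Itgb1 and Itgb7 differed by 0.113, Itgb7 and Selplg by 0.13 and Itga4 and Itgal by 0.252, while Itgax differed from every other member by at least 0.491. Among 8052 genes with a mean of at least 10 CPM, the nearest to Itga4 and also to Itgal were 1700017B05Rik and Fem1c, at 0.17 to 0.22 against a median of 1.08 and 1.17 over all genes. Nearest to Itgam were Tprg1l (0.186) and Ctsd (0.191), to Itgax Tubb6 (0.37) and Carns1 (0.383), to Itgb1 Padi2 (0.0911) and Tbxas1 (0.101), and to Itgb2 Rsu1 (0.0893) and Cast (0.0949). Tbxas1 (0.078) and Laptm5 (0.0908) were nearest to Itgb7, Spi1 (0.0821) and Mvp (0.087) to Selplg, and Washc2 (0.175) and Bin2 (0.192) to Icam1. These are descriptions over 12 libraries whose largest difference is that of the 2 tissues.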

How the data were processed

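RNA of eosinophils was sequenced as 12 stranded mRNA libraries with single-end reads. The authors aligned reads with HISAT2 2.2.1, counted them per gene with featureCounts 2.0.1 and deposited raw counts without normalization or filter. The header names Ensembl release 92 on GRCm38, a paired-end option and no option for strand or for reads on several genes, whereas the methods name a GRCm39 annotation. Symbols matched 49674 of 53801 identifiers (GENCODE M39, used for names only), and coordinates are those of the table. Upstream sequences are from RefSeq, GRCm38.p6.

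Counts were tested with edgeR 4.0.16 in R 4.3.3 (TMM, minimum count 10, minimum total count 15, prior count 0.125, Benjamini-Hochberg over all genes, called at 0.05) over the 6 libraries of each comparison and over 12 for the interaction. The genes named are the 9 members, from each other list up to 2 called genes of lowest p per direction and comparison, called genes within 1 Mb of Itgal, Itgam and Itgax, and the 2 nearest genes to each member by pattern. Marker genes and Atg5 serve as checks, and 1 marker gene is not reported here, so the B cell list was used without it, a choice made after the data were seen. Members and lists were chosen with earlier results of these data known. Alternatives were DESeq2 1.42.0, other scalings and filters, a replicate block, a fit of all 12 libraries, leaving out each library, and unshared length. The fit was tested on simulated data for knockout against control in bone marrow, the tissue difference in control mice and the interaction. Knockout against control in blood and the tissue difference in knockout mice were not simulated.

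Replicate numbers were checked by correlating deviations from group means. Same-numbered blood libraries of the genotypes gave 0.621, 0.392 and 0.388. Differently numbered ones gave -0.48 to 0.225, and those between replicates 2 and 3 were positive too, at 0.225 and 0.168. With 3 libraries per genotype these values do not show that the numbers pair the libraries, and no source says what they share. The other same-numbered pairs gave -0.221 to 0.177, and whether they share more than a number is not known.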

Additional observations from a re-analysis of the deposited data

How the results depend on the processing

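All 9 members were called higher in blood in both genotypes under each of 14 alternatives, while the genes called in control mice ranged from 2627 to 5926 when 1 library was left out (4679 with all), with 3041, 2994 and 2627 without control bone marrow 1, 2 or 3. The genes called between the genotypes in bone marrow were 48, and 192 with DESeq2, 420 without a filter, 23 with a replicate block, 12 with all 12 libraries, and 18 to 219 when 1 library was left out, with 219 without control bone marrow 1, 18 without control bone marrow 3, and 24 without knockout bone marrow 1 or 2. Members called there were 0, and 1 (Itgam) with DESeq2 and without a filter, and 0 to 1 when 1 library was left out (1 without control bone marrow 1). In blood the 5 genes called became 23 with DESeq2, 77 without a filter, 10 with the replicate block, 16 with all 12 libraries, and 2 to 6 when 1 library was left out (3 without knockout blood 1, 6 without control blood 1 and 2 without any of the others), with 0 members throughout. The interaction called 0 genes, and 11 with DESeq2 and 119 without a filter. The cause of these changes was not tested. The block changed no call of a member, and whether same-numbered samples share more than a number is not known.

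Values near 0 changed sign. In blood the knockout log2 fold change of Itgal (-0.01) was 0.0851 by library size alone and 0.0094 with the replicate block. With 1 library left out, those in blood ranged from -0.2471 to 0.0864 for Itga4, from -0.0869 to 0.1614 for Itgal, from -0.0175 to 0.1912 for Itgb1, from -0.0506 to 0.0987 for Itgb7, from -0.3049 to 0.015 for Selplg and from -0.3881 to 0.0415 for Icam1, and that of Itgb2 in bone marrow from -0.0032 to 0.2466. The interaction of Selplg (-0.01) was 0.0136 with DESeq2, 0.0124 with DESeq2-type factors, 0.0952 by library size alone, 0.0143 with the replicate block and -0.1847 to 0.133 with 1 library left out, and that of Itga4 was -0.0954 to 0.2378. With 1 library left out, the knockout difference in the log2 ratio of Itgb7 to Itgb1 was -0.0531 to 0.0201 in bone marrow and -0.098 to 0.0942 in blood, and that of Itga4 to Itgb1 in blood -0.2983 to 0.0327. Lengths cancel in these differences. Depth was not low for the members: the lowest count of a member in any library was 168.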

Other observations

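The 3 CD11 transcripts together, as CPM per kilobase, can be set against that of their common partner Itgb2. Their sum over Itgb2 was 0.255 to 0.276 in knockout and 0.295 to 0.484 in control bone marrow, and 0.473 to 0.606 and 0.481 to 0.643 in blood. With unshared length the bone marrow values were 0.636 to 0.685 and 0.759 to 1.36, so the alpha chains exceed Itgb2 in some libraries by that scale and in none by the other. Itgam made up 65.3% to 68.2% of the sum in knockout and 71.7% to 82.4% in control bone marrow, and Itgal 29.1% to 32.3% and 15.4% to 25.2%. Itgax reached 3.89% to 8.26% in blood and 2.07% to 3.00% in bone marrow. These values contain the same Itgam counts as the comparisons above and were not tested.

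In the blood of each genotype, replicate 1 carried the highest T and B cell shares, as given above. It also had the lowest Itgam, at 643 CPM in knockout and 793 CPM in control mice, and the lowest Selplg, at 1160 and 1052 CPM. Itgal and Itga4 were highest in replicate 1 of control but not of knockout blood. The part of these cells in the values was not tested.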
